A study of Rattus norvegicus with 32 samples.

Results

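Nuclear receptors other than the steroid hormone receptors were followed in rat uterus: the receptors for thyroid hormone, retinoids, fatty acids, oxysterols, bile acids, vitamin D and foreign chemicals, and the orphan receptors. The members were a list of 38 genes taken by symbol, not by any measured value, and 35 of them were found among the 17327 genes counted, while Rora, Nr2e3 and Nr6a1 were not analysed here. Of the 35, 31 passed the filter on low counts and were tested, and Nr0b1, Esrrb, Hnf4a and Nr5a1 lay below it. The uteri came from Sprague-Dawley rats of the NCTR breeding colony collected at PND365 (postnatal day, counted from the day of birth as 0). Dams were gavaged from gestation day 6 and their pups from postnatal day 1 until collection, in 8 groups of 4 libraries. The control group had the vehicle, 0.3% carboxymethylcellulose; 2 groups had ethinyl estradiol (EE2, an orally active estrogen) at 0.05 or 0.5 µg/kg body weight/day; and 5 groups had bisphenol A (BPA, a plastics monomer that binds estrogen receptors weakly) at 2.5, 25, 250, 2500 or 25000 µg/kg body weight/day. Groups are named below by agent and dose. The labels name no animal, litter, estrous stage or batch, so each p-value measures only the spread between these libraries, and in whole uterus fewer cells of a type cannot be told apart from less RNA per cell.

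Nuclear receptors are transcription regulators that, in nearly all members, carry a DNA-binding domain with zinc fingers and a pocket for a small fat-soluble ligand. The thyroid hormone, retinoic acid, vitamin D, PPAR, LXR, FXR, PXR and CAR receptors bind DNA as pairs with a retinoid X receptor (RXR) at repeats of the hexamer AGGTCA, and exchange corepressors for coactivators when ligand binds. Orphan members such as the COUP-TFs, the TR2 and TR4 receptors and the estrogen-related receptors bind related sites without a known hormone. In uterus, COUP-TFII (Nr2f2) acts in the stroma below progesterone and Indian hedgehog signalling, and retinoic acid receptors and PPARs take part in decidual and epithelial differentiation.

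Of the members described below, Nr1i2 varied most in level between groups, and Rxrb, Rarg and Nr2f1 differed across the 8 groups. Rxrb and Rarg had their lowest means in BPA 250, where Nr2f1 had its highest, and Nr2f1 was lowest in control. The promoter windows of these 4 members are printed first. They are RefSeq sequences of build GRCr8, from 250 bases before to 50 bases after the transcription start, written 5′ to 3′ on the gene's strand; the deposited counts were made on build rn5 and none was read by these coordinates. Capitals mark AGGTCA or its complement TGACCT, and GGGCGG or its complement CCGCCC, the core of the site for Sp1-type factors.
Nr1i2, chr11:75965467-75965766, plus strand: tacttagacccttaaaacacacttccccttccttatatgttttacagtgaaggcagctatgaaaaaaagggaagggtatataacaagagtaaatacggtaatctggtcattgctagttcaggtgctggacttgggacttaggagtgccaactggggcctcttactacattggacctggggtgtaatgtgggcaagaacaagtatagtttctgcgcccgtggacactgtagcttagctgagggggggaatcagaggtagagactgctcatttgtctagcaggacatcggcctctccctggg
Rxrb, chr20:4824610-4824909, minus strand: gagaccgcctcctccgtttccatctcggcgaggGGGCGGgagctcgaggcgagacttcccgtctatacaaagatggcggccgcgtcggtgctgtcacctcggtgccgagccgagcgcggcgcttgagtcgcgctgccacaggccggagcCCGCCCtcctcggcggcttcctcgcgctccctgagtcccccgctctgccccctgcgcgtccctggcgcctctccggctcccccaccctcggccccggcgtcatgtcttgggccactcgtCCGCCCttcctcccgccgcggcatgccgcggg
Rarg, chr7:135268840-135269139, minus strand: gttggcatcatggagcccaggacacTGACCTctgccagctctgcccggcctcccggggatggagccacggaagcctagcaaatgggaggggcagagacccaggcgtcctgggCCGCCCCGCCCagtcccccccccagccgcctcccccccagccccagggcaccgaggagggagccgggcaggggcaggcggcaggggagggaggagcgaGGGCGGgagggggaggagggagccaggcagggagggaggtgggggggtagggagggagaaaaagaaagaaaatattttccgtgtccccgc
Nr2f1, chr2:9785875-9786174, minus strand: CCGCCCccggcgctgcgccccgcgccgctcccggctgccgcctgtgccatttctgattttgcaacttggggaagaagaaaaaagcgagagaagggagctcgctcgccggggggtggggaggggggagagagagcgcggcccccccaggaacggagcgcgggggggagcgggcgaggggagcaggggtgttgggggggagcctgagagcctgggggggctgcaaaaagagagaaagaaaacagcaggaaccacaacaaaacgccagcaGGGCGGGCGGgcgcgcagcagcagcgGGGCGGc
Of these 4 windows only that of Rarg held the hexamer, read as TGACCT, 225 bases before the start, and it is the first of the 2 windows the table lists for Rarg. Those of Rxrb, Rarg and Nr2f1 held GGGCGG on either strand 3, 3 and 4 times, counting overlapping copies, and that of Nr1i2 did not hold it. Windows were found for 30 of the 35 members, 37 windows in all, and both strands were searched. AGGTCA stood in 4 of the 37 (those of Esrrg, Nr0b1, Nr5a2 and Rarg), 10.8%, against 16.2% of all 33469 promoter windows. GGGCGG stood in 20 of the 37, 54.1%, against 33.1% of all. No member window held 2 copies of AGGTCA in direct orientation with 0 to 5 bases between them, or facing each other with 3 bases between them; each of these 7 arrangements stood in at most 0.0538% of all windows. The GC content of the member windows had a median of 60.3% (range 43.7% to 84.7%) against 51.7% over all windows. These matches describe letters only.

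Library totals ran from 11777809 to 24661856 counts, and levels are given as CPM, the count scaled to the normalized library size, on which 3 counts are worth 0.130 to 0.267 CPM in a single library. Estrogen receptor Esr1 (70.7 to 210 CPM) and progesterone receptor Pgr (72.1 to 326 CPM), genes expressed in uterus, were present in every library. Of 32 libraries, 4 stood apart from the rest, with median correlations to the others of 0.892 (BPA 2.5 replicate 1), 0.911 (BPA 250 replicate 1), 0.911 (BPA 2.5 replicate 3) and 0.926 (BPA 25000 replicate 3), against 0.938 or more elsewhere. In BPA 2.5 replicates 1 and 3, the 8 ciliated cell markers found, of 10 listed, summed to 824 and 549 CPM (26 to 234 CPM in the 28 libraries outside BPA 2.5), and 8 nerve and glia markers to 114 and 121 CPM. BPA 250 replicate 1 had counts for 12345 genes against 13288 to 14138 in the others, and 148 genes were at 0 in it that reached 0.5 CPM in each of the other 31 libraries, Nr4a2, Nr4a3 and Nr5a2 among them. Results on members are given with and without the 4 where they differ in the call, as are those on listed targets that rest on these libraries.

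Member levels spanned several orders, and levels are compared here between libraries, not between genes, because no transcript lengths were used. Averaged over libraries, 18 members were at 10 CPM or more, 13 at 1 to 10 CPM and 4 below 1 CPM. The members with the most counts were Thra (68028 counts, 74.9 to 224 CPM), the thyroid hormone receptor alpha gene; Nr2f2 (36027 counts, 51.4 to 105 CPM), COUP-TFII; Nr2c2 (33084 counts, 30.8 to 114 CPM), the orphan receptor TR4; and Nr1h2 (30812 counts, 43.5 to 77.0 CPM), the widely expressed oxysterol receptor LXR beta. Nr2f2 was the steadiest of these between groups, with group means within 1.26 times of each other. Over 30 tested members (Nr1i2, with a group at 0, has no such value), the median coefficient of variation within groups was 25.2%, from 9.33% for Nr1h2 to 68.9% for Nr0b2.

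**Figure D1:**
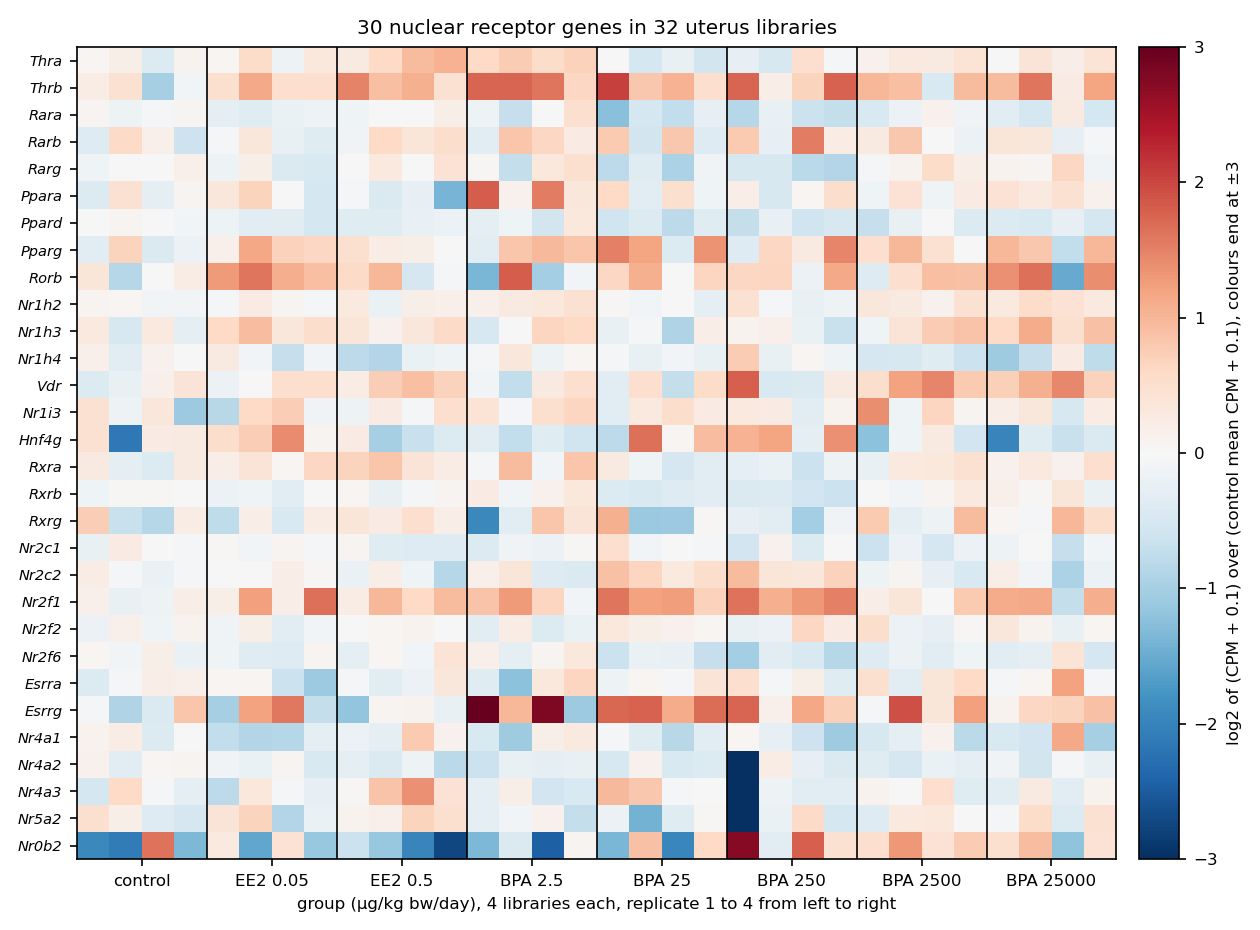
Level of 30 tested members (rows) in the 32 libraries (columns, 4 per group, replicate 1 to 4 from left to right) as log2 of CPM + 0.1 over the control mean + 0.1, with colours ending at ±3; Nr1i2 is left out because its range is wider. Esrrg and Ppara are darkest red in BPA 2.5 replicates 1 and 3, Nr4a2, Nr4a3 and Nr5a2 are blue in BPA 250 replicate 1, where they had 0 counts, and Thrb is red in most exposed libraries.

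The 4 members below the filter had few counts in any library. Nr0b1 (DAX1, a repressor of steroidogenic genes) had 9 counts in all, and 29 libraries were at 0. Nr5a1 (SF-1, the activator of steroidogenesis in gonad and adrenal) had 42 counts, with 17 libraries at 0 and a highest value of 0.460 CPM. Hnf4a, a liver and gut regulator, had 32 counts with 21 libraries at 0. Esrrb, an estrogen-related receptor, had 130 counts with 17 libraries at 0, and stood at 2.79 and 2.93 CPM in BPA 2.5 replicates 1 and 3 but at 0.888 CPM or less in the other 30 libraries. Nr5a2 (LRH-1, needed for decidualization in mice) was tested, at 0 to 2.67 CPM, and passed no comparison.

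Against control, members were called in BPA 2.5 and BPA 250 only. A call is an adjusted p below 0.05 in edgeR's quasi-likelihood test over 13312 genes, with Benjamini-Hochberg adjustment over all of them. Each SE was worked back from that test, as the size of the log2 fold change over the square root of F. It was not estimated separately. Lack of overlap between the libraries of 2 groups is described below for some genes and is not a call. The share of all genes without such overlap was not counted, so it cannot be set against a background. In BPA 2.5, 5 of 31 members (16.1%) passed, all higher, where 11.4% of all tested genes passed and 7.06% passed in the higher direction. In BPA 250, 5 of 31 passed, 2 higher and 3 lower, where 8.79% of all genes passed, 4.44% higher and 4.35% lower. These shares lay near or somewhat above those of all genes, and with 31 members 1 call is worth 3.23 percentage points. Single libraries weighed on both counts: without control replicate 3, 0 members and 594 genes in all passed in BPA 2.5 (5 and 1524 with it), and without BPA 250 replicate 1, 0 members and 179 genes passed in BPA 250 (5 and 1170 with it).

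In the other 5 comparisons with control 0 members passed, and the background was low too. Of all genes, 0.0451% passed in EE2 0.05 and 0.556% in EE2 0.5. The BPA 25 share was 1.92%, the BPA 2500 share 0% and the BPA 25000 share 2.32%. At an unadjusted p below 0.05, 4 members stood in EE2 0.05 (11.5% of all genes), 5 in EE2 0.5 (15.6%), and 8 in BPA 2.5 (26.8%). BPA 25 had 11 (24.4%), BPA 250 had 9 (28.6%), BPA 2500 had 3 (10.2%) and BPA 25000 had 7 (19.3%). BPA 25 had the largest such share, 35.5% of the members. DESeq2 called 6 members in BPA 25, 1 in EE2 0.5, 1 in BPA 25000 and 0 in EE2 0.05 and BPA 2500, and edgeR without the 4 libraries that stood apart called 7 in BPA 25 (Nr1i2, Nr2f1, Ppard, Rxrb, Rara, Nr2c2 and Thrb) and 4 in BPA 25000 (Nr1h4, Rorb, Nr2f1 and Nr1h3). None of the 4 libraries is in BPA 25 or control. Over all genes, the main analysis called 256 in BPA 25 and 74 in EE2 0.5. DESeq2 called 1080 and 442 there, and the fit without the 4 libraries called 1374 in BPA 25. Such counts are not given here for BPA 25000, so its member counts in those fits have no background beside them. All 7 comparisons share the 4 control libraries.

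Members with an unadjusted p below 0.05 that did not pass are named here where they are not described further on. In EE2 0.05 these were Nr2f1 (0.95, SE 0.34, adjusted p = 0.269), Nr1h3 (0.62, SE 0.27, adjusted p = 0.370), Rorb and Ppard (-0.33, SE 0.16, adjusted p = 0.418). In EE2 0.5 they were Thra, Thrb (1.04, SE 0.40, adjusted p = 0.192), Rxra, Nr1i2 and Nr2f1 (0.73, SE 0.33, adjusted p = 0.289). Nr2f1 (0.75, SE 0.33, adjusted p = 0.143) and Nr1h2 (0.30, SE 0.13, adjusted p = 0.143) stood so in BPA 2.5, Nr2f6 in BPA 25 (-0.41, SE 0.19, adjusted p = 0.185), and Nr1h2 also in BPA 2500 (0.30, SE 0.13, adjusted p = 0.443). In BPA 25000, Thrb (1.08, SE 0.40, adjusted p = 0.127), Ppard (-0.41, SE 0.16, adjusted p = 0.148) and Nr2f1 (0.82, SE 0.33, adjusted p = 0.167; 1.12, SE 0.31, adjusted p = 0.0352 without the 4 libraries apart) did, and in BPA 250, Nr1i2 (3.79, SE 1.59, adjusted p = 0.120). Over BPA dose, slopes that did not pass were those of Vdr, Nr1h3 (0.18, SE 0.059, adjusted p = 0.0763), Esrrg (-0.38, SE 0.14, adjusted p = 0.114), Nr1h4 (-0.15, SE 0.056, adjusted p = 0.120), Nr2c2 (-0.11, SE 0.048, adjusted p = 0.174) and Ppara (-0.17, SE 0.078, adjusted p = 0.189).

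Across all 8 groups, 13 of 31 members (41.9%) differed somewhere, against 31.7% of all genes. At an unadjusted p below 0.05 the figures were 17 members and 45.1%. The 13 were Rxrb, Thra, Nr1i2, Nr2c2, Rarg, Nr1h3, Ppara, Nr2f1, Hnf4g, Rxra, Esrrg, Nr1h2 and Nr2f6. Rxrb, Thra, Nr1i2, Nr2c2 and Rarg kept this call without each of the 32 libraries in turn, while Nr2f6 and Nr1h2 kept it in 8 and 10 of those 32 fits and Rxra in 21 (adjusted p up to 0.149, 0.0912 and 0.0899). Nr1h3 lost it without BPA 25000 replicate 2 or 4 (adjusted p up to 0.0597) and Nr2f1 without control replicate 2 or 3 or BPA 250 replicate 1 or 4 (up to 0.0675). Without the 4 libraries apart, Ppara (0.505), Esrrg (0.129), Hnf4g (0.0861) and Nr2f6 (0.0772) were no longer called, while Nr1h4 (0.0175), Ppard (0.0307) and Vdr (0.0381) were. The median log2 fold change of the 31 members against control was 0.24 in BPA 2500 and 0.21 in BPA 25000, where over all genes it was 0.014 and 0.021; in BPA 2500, 22 members had a fitted value above 0 and 9 below. In BPA 2.5, BPA 25 and BPA 250 the member medians were 0.081, 0.071 and 0.097, with 0.046, 0.0036 and -0.022 over all genes, and in EE2 0.05 and EE2 0.5 they were -0.0040 and 0.17, with -0.0056 and 0.0010.

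**Figure D2:**
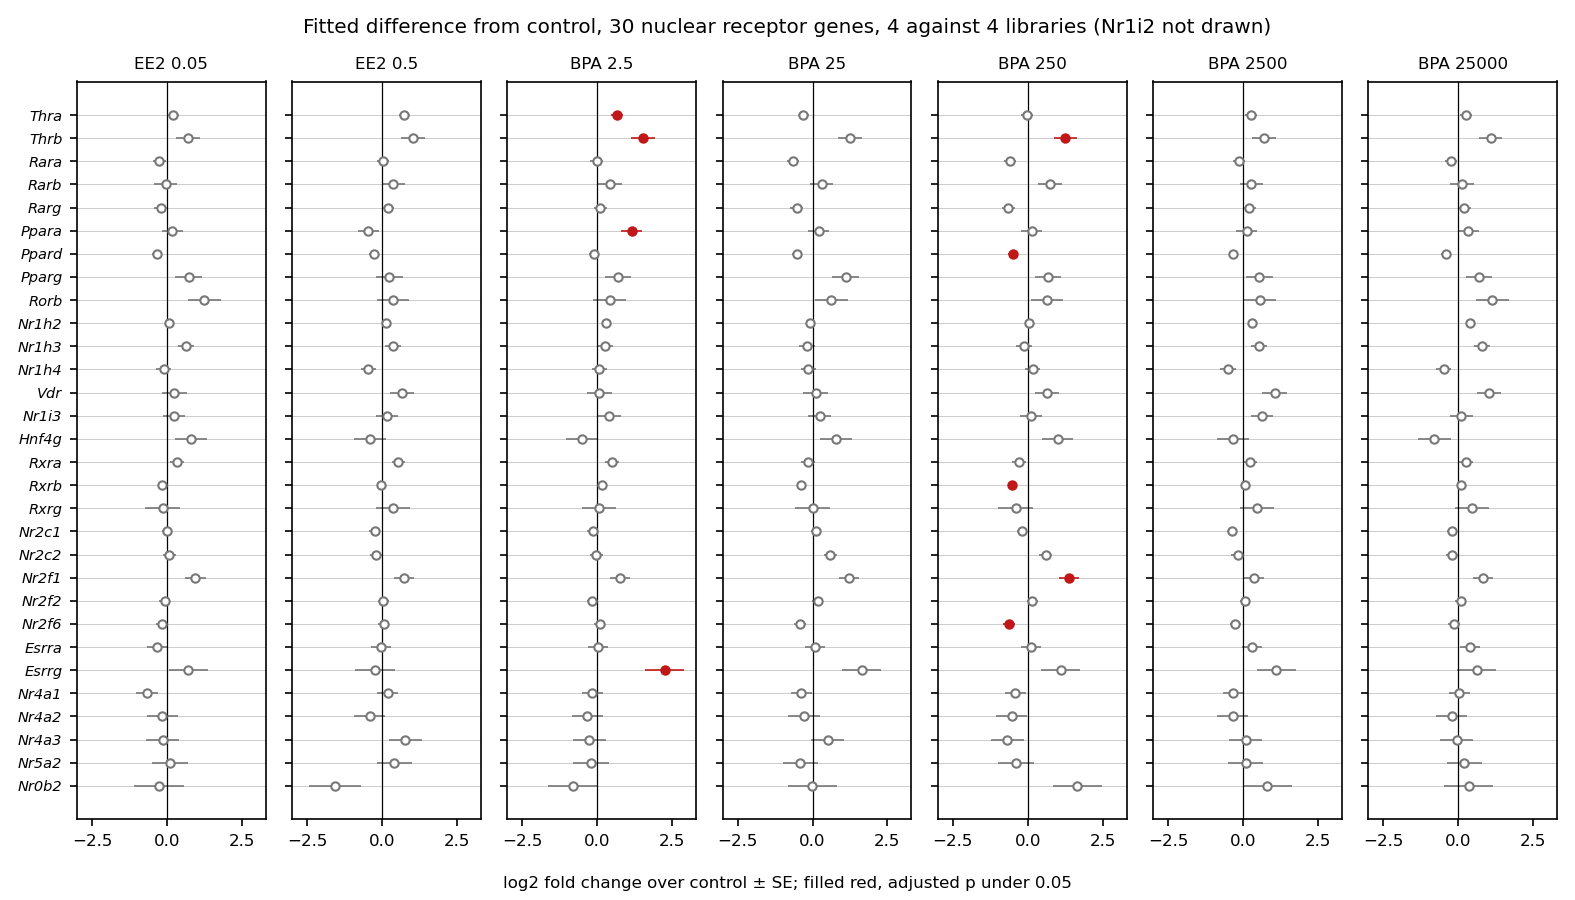
Fitted log2 fold change over control for 30 tested members (rows) in the 7 exposed groups (panels, 4 against 4 libraries each), filled red where the adjusted p was below 0.05. Whiskers are the SE worked back from the F value of the test. The red points are Thra, Thrb, Ppara and Esrrg in BPA 2.5, and Thrb, Ppard, Rxrb, Nr2f1 and Nr2f6 in BPA 250; Nr1i2, called in BPA 2.5 at 6.07, is not drawn.

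Of the xenobiotic sensors, Nr1i2 varied most. It encodes PXR, which binds drugs, steroids and bile acids and induces genes of drug metabolism and transport, chiefly in liver and gut. Control libraries held 0.172, 0.222, 0.145 and 0.209 CPM, which is 2, 3, 2 and 3 counts. BPA 2.5 libraries held 4.25, 12.8, 3.4 and 31.9 CPM, and BPA 25 libraries 13.3, 2.59, 3.55 and 9.66 CPM. Every library of these 2 groups was above every control library. BPA 250 libraries held 0, 8.85, 0 and 1.67 CPM, BPA 2500 libraries 0.281, 3.74, 0 and 1.54 CPM, and BPA 25000 libraries 0.390, 0.564, 0 and 0.320 CPM. At each of these 3 doses at least 1 library was at 0, below every control library, and the rest were above every control library. With controls at 2 or 3 counts, this order can turn on a few counts where levels are lowest. EE2 0.05 libraries were all at 0, which allows up to 0.0494 CPM over the group (3 counts, counting error only), and EE2 0.5 libraries held 0, 6.78, 0 and 2.78 CPM.

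The mean Nr1i2 level fell with BPA dose, from 13.1 ± 13.2 CPM (SD, n = 4) in BPA 2.5 and 7.28 ± 5.10 in BPA 25 to 2.63 ± 4.22 at the middle dose, BPA 250. It was 1.39 ± 1.70 CPM in BPA 2500 and 0.318 ± 0.236 CPM in BPA 25000. The fitted trend over the 5 BPA groups was -1.30 on the log2 scale per 10-fold dose (SE 0.34, adjusted p = 0.0318). This was the only member called of 31 in that test, where 4.62% of all genes passed; 7 members and 22.8% of all genes had an unadjusted p below 0.05. The trend call was lost without BPA 2.5 replicate 1 or any of the 4 BPA 25000 libraries (adjusted p up to 0.0728, slopes -1.42 to -1.11 over the 16 fits) and without the 4 libraries that stood apart (0.0556). Against control, BPA 2.5 was higher by 6.07 (SE 1.66, adjusted p = 0.0194), and by 6.84 (SE 1.59, adjusted p = 0.0198) without the 4 libraries. From summed counts of 784 and 10, the ratio to control was 70.2, with an exact interval of 37.98 to 147 that covers counting error only. BPA 2.5 replicate 4 held 500 of those 784 counts, and with it left out the fitted value was 5.12 (SE 1.67, adjusted p = 0.0393). Without control replicate 2, 3 or 4 the adjusted p was at most 0.0687 and the call was lost. BPA 25 had a log2 fold change of 5.22 (SE 1.63) that did not pass, at an adjusted p of 0.0679; without the 4 libraries, none of which is in BPA 25 or control, it was 5.23 (SE 1.48, adjusted p = 0.0314).

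Nr1i2 overlaps Gsk3b in the RefSeq annotation, and whether counting used strand is not given in the sources used here. Gsk3b, a kinase gene, was at 71.5 to 88.8 CPM in control and 46.6 to 87.4 CPM in BPA 2.5, with a log2 fold change of -0.22 (SE 0.20, adjusted p = 0.508). Among 8 liver markers, summed levels in BPA 2.5 (31 to 74.3 CPM) lay inside those in control (29.7 to 98.5 CPM). Of these, 4 were at 0 in every control library and 1 in every BPA 2.5 library, and Ahsg (fetuin A) was higher in BPA 2.5 by 6.38 (SE 1.70, adjusted p = 0.0158), at 5.32, 0, 3.4 and 0 CPM. Both libraries with Ahsg counts there stood apart, and with the 4 left out its value was -1.76 (SE 2.73, adjusted p = 0.798). Its part in the Nr1i2 difference was not tested.

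Nr1i3, which encodes CAR, the partner sensor of PXR, was at 1.25 to 7.46 CPM and passed no comparison. Of 11 listed genes that PXR and CAR are known to induce, 7 were tested and 0 passed in BPA 2.5, where Nr1i2 was highest. In BPA 250, 2 were higher and 1 lower: the drug efflux pump genes Abcb1a by 1.70 (SE 0.40, adjusted p = 0.0134) and Abcb1b by 3.72 (SE 0.91, adjusted p = 0.0163), and Por, the electron donor of cytochromes P450, by -1.06 (SE 0.20, adjusted p = 0.00616). In BPA 25000, Abcb1a (1.77, SE 0.40, adjusted p = 0.0245) and Abcb1b (3.82, SE 0.92, adjusted p = 0.0303) were higher. Abcb1b libraries were at 15.1, 42.8, 15.9 and 20.9 CPM in control and at 48.6, 767, 25.7 and 494 CPM in BPA 25000, so 2 libraries carried that difference. With the 4 libraries apart left out, Abcb1a in BPA 250 was at 1.21 (SE 0.39, adjusted p = 0.0591), and the other calls in these 2 groups held. The 7 tested genes had a median log2 fold change of 0.33 in BPA 2.5, with 1.19 at the next dose, 1.36 in BPA 250 and 0.066 in BPA 25000.

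**Figure D3:**
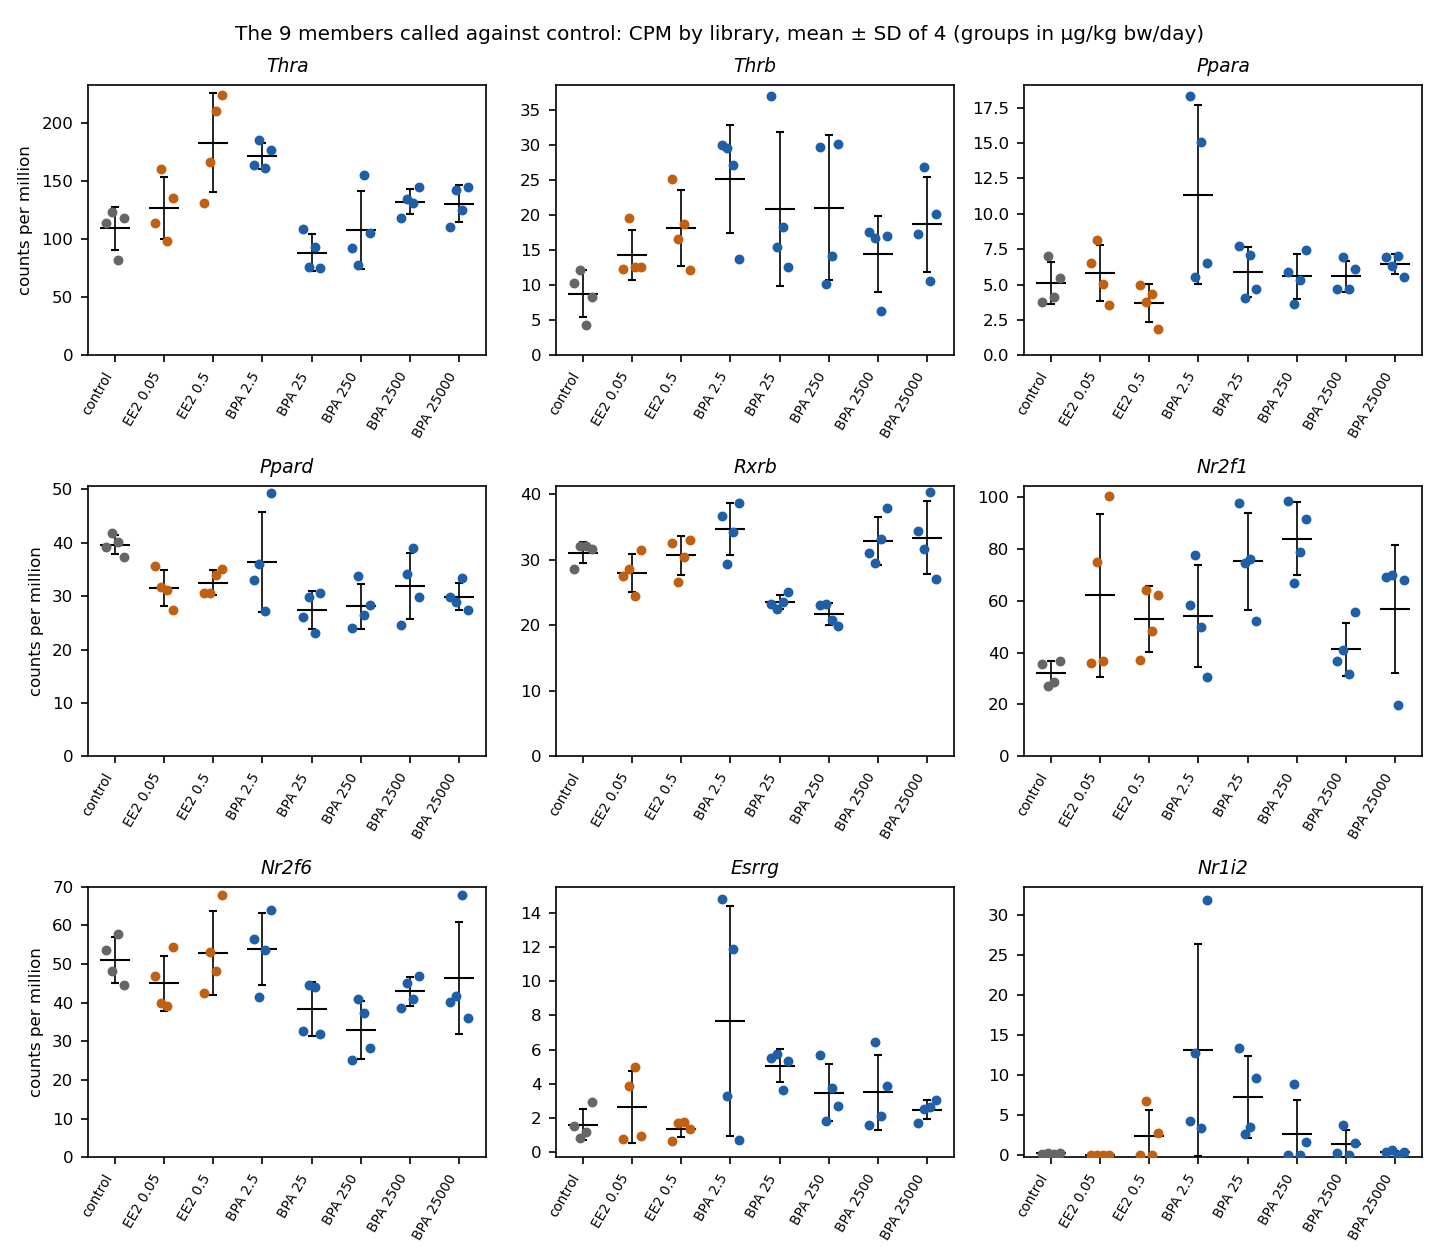
CPM of the 9 members called against control in any group, by library (points), with the group mean (bar) and SD (whiskers) of 4 libraries; the groups are in µg/kg body weight/day and each panel has its own axis. Rxrb lies between 19.8 and 25.0 CPM in all 8 BPA 25 and BPA 250 libraries, Nr1i2 falls from 13.1 CPM in BPA 2.5 to 0.318 CPM in BPA 25000, and the means of Ppara and Esrrg in BPA 2.5 rest on 2 libraries.

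Both thyroid hormone receptor genes were higher in BPA 2.5. Thrb, the beta form, was at 10.3, 12.2, 4.35 and 8.36 CPM in control and at 30, 29.6, 27.2 and 13.7 CPM in BPA 2.5, without overlap, a log2 fold change of 1.51 (SE 0.40, adjusted p = 0.0150). In BPA 250 it was at 29.7, 10.2, 14.2 and 30.2 CPM (1.26, SE 0.40, adjusted p = 0.0454), where 1 library lay within the control range. Control had the lowest mean of the 8 groups, 8.82 ± 3.37 CPM (SD, n = 4), and the other groups had fitted values of 0.70 (EE2 0.05) to 1.24 (BPA 25) that did not pass; the BPA 25 value passed without the 4 libraries apart (1.25, SE 0.39, adjusted p = 0.0451). The mean of the 5 BPA groups against control was 1.16 (SE 0.33, adjusted p = 0.0659). Control replicate 3, at 4.35 CPM, weighed on this: without it the adjusted p was 0.0709 in BPA 2.5, the highest of the 8 fits without a library. In BPA 250 the call was lost without any of the 4 controls or without replicate 1 or 4 (adjusted p up to 0.136). With the 4 libraries that stood apart left out, the adjusted p was 0.112 in both groups. In fits of only the 2 groups compared it was 0.0743 in BPA 2.5 and 0.0831 in BPA 250, so both calls were lost there too, and with no filter on low counts it was 0.0500 in BPA 250, just over the threshold.

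Thra, the alpha form, was at 114, 123, 81.8 and 118 CPM in control, and at 164, 185, 161 and 177 CPM in BPA 2.5, where all libraries were above control (0.65, SE 0.19, adjusted p = 0.0255). It was also high in EE2 0.5, at 131, 166, 210 and 224 CPM, above every control library, but the test there gave 0.74 (SE 0.19, adjusted p = 0.0604). BPA 25 libraries were at 109, 76.0, 93.3 and 74.9 CPM, the lowest mean. The difference across groups passed (adjusted p = 0.00138). In BPA 2.5 the call was lost without control replicate 3 (adjusted p up to 0.114 over the 8 fits) and without the 4 libraries that stood apart (0.74, SE 0.23, adjusted p = 0.0750), and was also lost where only these 2 groups were fitted (0.62, SE 0.16, adjusted p = 0.0799).

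Thra overlaps the clock repressor gene Nr1d1 and the Mediator gene Med24 in the RefSeq annotation, so part of its counts cannot be told apart from theirs. Nr1d1 was at 51.0, 25.9, 28.2 and 35.4 CPM in control and at 52.7, 54.4, 92.3 and 77.2 CPM in EE2 0.5 (0.98, SE 0.23, adjusted p = 0.0478). BPA 250 libraries held 23.3, 16.5, 24 and 12.4 CPM (-0.88, SE 0.24, adjusted p = 0.0240), and BPA 2.5 libraries 42.7 to 54.5 CPM (0.49, SE 0.23, adjusted p = 0.173). Its part in the Thra counts was not tested. Of 8 stratified epithelium markers, 7 were found, with sums of 2.15 to 7.94 CPM in control. The sums were 33.1 to 235 CPM in EE2 0.5 and 26 to 40.4 CPM in BPA 2.5, the 2 groups where Thra was highest. EE2 0.05, not among those 2, had sums of 11.8, 3.88, 424 and 142 CPM. The part of these markers in the Thra counts was not tested either. Of 7 listed thyroid hormone targets, all tested, Thrsp, a lipogenic protein gene, was higher in BPA 2.5 by 3.38 (SE 0.94, adjusted p = 0.0198) and Me1, malic enzyme, was lower by -0.79 (SE 0.23, adjusted p = 0.0275). Thrsp was at 54.5 and 53.5 CPM in BPA 2.5 replicates 1 and 3, and at 2.46 and 2.61 CPM in replicates 2 and 4, within the control range of 1.38 to 6.07 CPM. Both calls were lost with the 4 libraries apart left out, where Thrsp was at -0.078 (SE 0.94, adjusted p = 0.979) and Me1 at -0.40 (SE 0.24, adjusted p = 0.384). The list's median was 0.22 in BPA 2.5 against 0.046 over all genes.

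Among retinoic acid receptors, Rarg (the epithelial gamma form) differed across groups (adjusted p = 0.00800), with its lowest means in BPA 250 and BPA 25. Control libraries were at 32.6, 35.3, 35.4 and 39.6 CPM, BPA 250 libraries at 25.7, 25.6, 20.2 and 19.3 CPM, all below control, and BPA 25 libraries at 20.5, 27.6, 18.6 and 33.1 CPM. The log2 fold changes did not pass: -0.65 (SE 0.22, adjusted p = 0.0539) in BPA 250 and -0.52 (SE 0.22, adjusted p = 0.143) in BPA 25. Rara, the broadly expressed alpha form, was at 52.7 to 61.8 CPM in control, 24.3 to 49.2 CPM in BPA 25 (-0.65, SE 0.21, adjusted p = 0.0723) and 31.8 to 49.5 CPM in BPA 250 (-0.60, SE 0.21, adjusted p = 0.0665), without overlap with control in either group. The BPA 25 value passed without the 4 libraries apart (-0.64, SE 0.20, adjusted p = 0.0436). Rarb, itself a retinoic acid target, was at 1.67 to 7.84 CPM and passed no comparison.

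Of 12 listed retinoic acid targets, 11 were tested, with 2 higher and 1 lower in BPA 250 and 1 higher in each of EE2 0.5, BPA 2.5 and BPA 25000. In BPA 250, Cyp26a1, the enzyme that degrades retinoic acid, was higher by 8.43 (SE 1.83, adjusted p = 0.00997) and Lrat, which stores retinol as esters, by 3.03 (SE 0.78, adjusted p = 0.0201). Cyp26a1 libraries were at 0.345, 0.370, 0.217 and 0 CPM in control and at 221, 0.635, 78.1 and 22.9 CPM in BPA 250, the highest of these in a library that stood apart. In BPA 25000 they were at 9.14, 289, 5.43 and 180 CPM (9.01, SE 1.85, adjusted p = 0.0155). In BPA 2.5, Dhrs3, a retinal reductase gene, was higher by 0.58 (SE 0.18, adjusted p = 0.0368). With the 4 libraries apart left out, Cyp26a1 stood at 7.16 (SE 1.71, adjusted p = 0.0224) in BPA 250 and 9.43 (SE 1.76, adjusted p = 0.00486) in BPA 25000, and the Dhrs3 call was lost (0.42, SE 0.19, adjusted p = 0.236). The list's median was -0.12 in BPA 250.

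Of the RXR partners, Rxrb had the clearest difference across groups of any member (adjusted p = 0.00101). Control libraries were at 28.6, 32, 32 and 31.5 CPM, BPA 250 libraries at 23.1, 23.2, 20.9 and 19.8 CPM, and BPA 25 libraries at 23.3, 22.5, 23.6 and 25.0 CPM. All 8 exposed libraries were below all 4 controls, and the SDs were 1.64, 1.68 and 1.07 CPM. The log2 fold change passed in BPA 250, at -0.51 (SE 0.13, adjusted p = 0.0160), and not in BPA 25, at -0.40 (SE 0.13, adjusted p = 0.0680), where it passed without the 4 libraries apart (-0.39, SE 0.12, adjusted p = 0.0436). The BPA 250 call held in all 8 alternative analyses, with adjusted p up to 0.0364, and was -0.53 (SE 0.13, adjusted p = 0.0251) without the 4 libraries that stood apart. It was lost without BPA 250 replicate 1 or replicate 4 alone (adjusted p up to 0.0554, log2 fold change -0.56 to -0.47 over the 8 fits). Rxrb overlaps Slc39a7, a zinc transporter gene, at 70.9 to 108 CPM in control and 39.4 to 62.3 CPM in BPA 250 (-0.78, SE 0.23, adjusted p = 0.0358), whose reads cannot be told apart from those of Rxrb where the 2 genes overlap.

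Rxra, the main RXR of epithelia and liver, differed across groups (adjusted p = 0.0327), with means from 14.6 ± 2.11 CPM (SD, n = 4) in BPA 250 to 26.3 ± 4.89 in EE2 0.5. Its log2 fold change over control was 0.55 (SE 0.23, adjusted p = 0.236) in EE2 0.5 and 0.49 (SE 0.23, adjusted p = 0.165) in BPA 2.5. The BPA 2.5 libraries split, with replicates 2 and 4 at 34.6 and 32.1 CPM and replicates 1 and 3, which stood apart, at 17.5 and 16.9 CPM; without the 4 libraries apart the value was 0.89 (SE 0.24, adjusted p = 0.0339). Rxrg, the RXR of muscle and nervous tissue, was at 0.190 to 2.21 CPM and passed no comparison.

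Ppara and Ppard moved in different groups. Ppara, the PPAR that drives fatty acid oxidation, was at 3.79, 7.03, 4.13 and 5.43 CPM in control and at 18.3, 5.54, 15.1 and 6.5 CPM in BPA 2.5 (1.15, SE 0.35, adjusted p = 0.0320). BPA 2.5 replicates 1 and 3 were the 2 highest of the 32 libraries, and replicates 2 and 4 lay within the control range. Without the 4 libraries apart it was 0.25 (SE 0.37, adjusted p = 0.787), and the call was also lost without control replicate 1, 3 or 4 or BPA 2.5 replicate 1 or 3 alone (adjusted p up to 0.169). A fit of only these 2 groups did not call it either (1.11, SE 0.41, adjusted p = 0.166).

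Ppard, the widely expressed delta form that is linked to implantation, was at 39.2, 41.8, 40.1 and 37.4 CPM in control and at 23.9, 33.8, 26.4 and 28.3 CPM in BPA 250, without overlap (-0.49, SE 0.16, adjusted p = 0.0458). BPA 25 libraries stood at 26.1, 29.8, 23 and 30.7 CPM (-0.53, SE 0.16, adjusted p = 0.0574), also without overlap, and passed without the 4 libraries apart (-0.52, SE 0.14, adjusted p = 0.0249). Control had the highest mean of the 8 groups, and the fitted value was below 0 in all 7 exposed groups, which share those controls; the mean of the BPA groups was -0.37 (SE 0.12, adjusted p = 0.0856). The BPA 250 call was close to the threshold: adjusted p ran from 0.0230 to 0.173 over the 8 fits without a library, was kept in 1 of them (that without replicate 2), and was 0.0927 without the 4 libraries apart. It was lost in 5 of the 8 alternative analyses in all, at 0.0506 with only the groups compared, 0.0534 with DESeq2's size factors, 0.0513 with genes kept at 1 CPM in 16 libraries and 0.0654 with no filter. Pparg, the fat cell and macrophage form, was at 1.45 to 3.18 CPM in control and 1.46 to 5.86 CPM in BPA 25 (1.11, SE 0.44, adjusted p = 0.129).

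Of 15 listed PPAR targets, 14 were tested, and 4 were higher in BPA 2.5, among them Cpt1b, for fatty acid entry into mitochondria (1.17, SE 0.36, adjusted p = 0.0350) and Pdk4, which holds back pyruvate oxidation (1.96, SE 0.63, adjusted p = 0.0417). Cpt1b was at 12.2, 17, 16.8 and 17.8 CPM in BPA 2.5, above the control libraries at 7.76, 7.33, 7.03 and 6.34 CPM, in the 2 libraries with high Ppara as in the 2 without. In BPA 250, 3 were higher, among them Lpl and Cd36, by 2.50 and 2.0. In BPA 25000, 3 were higher, among them Pdk4 and Cpt1b, by 2.79 and 1.61. In BPA 25, Lpl alone was higher, by 2.62. None was lower in these groups, and the list's median was 0.89 in BPA 2.5 and 0.90 in BPA 25000, with 0.46 and 0.34 at BPA 25 and BPA 250. It was also above 0 where 0 passed, at 0.64 in EE2 0.05, 0.59 in EE2 0.5 and 0.38 in BPA 2500, and all 7 groups share the controls. In BPA 2.5 the Pdk4 call held with the 4 libraries apart left out (2.50, SE 0.66, adjusted p = 0.0313) and that of Cpt1b did not (1.30, SE 0.44, adjusted p = 0.0976). Summed fat cell markers (8 of 8 found) were at 11.1 to 503 CPM in control and 146 to 424 CPM in BPA 2.5, and their part in these values was not tested.

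**Figure D4:**
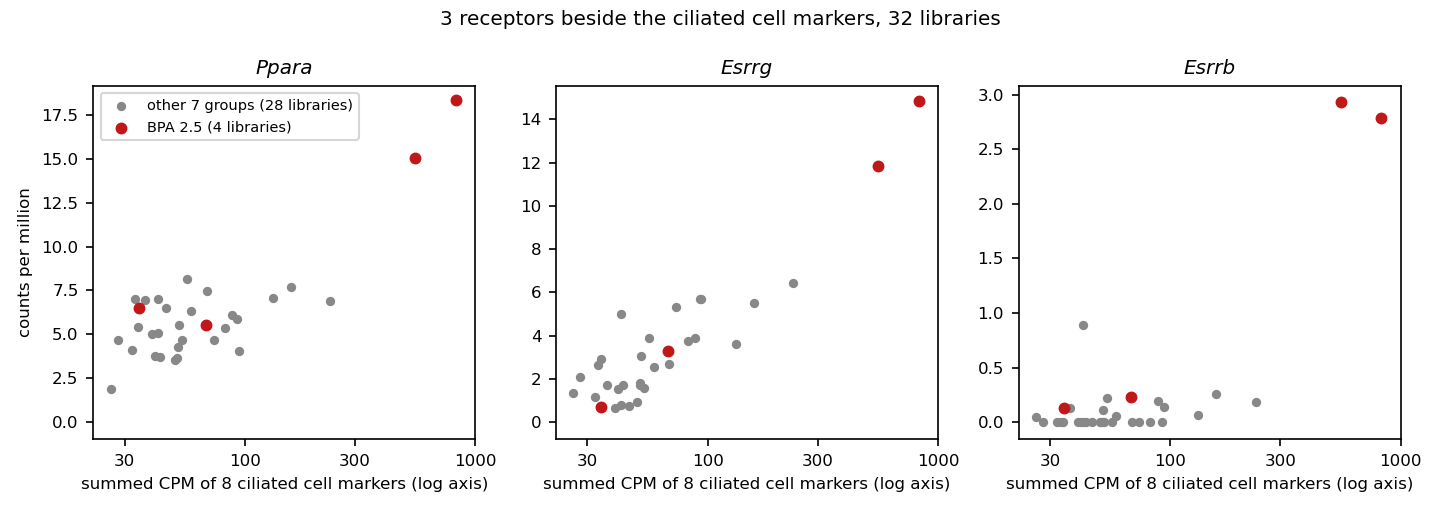
CPM of Ppara, Esrrg and Esrrb (vertical axes) against the summed CPM of 8 ciliated cell markers (horizontal, log axis) in the 32 libraries, BPA 2.5 in red. BPA 2.5 replicates 1 and 3 lie at the right, with marker sums of 824 and 549 CPM, and have the highest value of each of the 3 genes, while BPA 2.5 replicates 2 and 4 lie among the other groups.

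Esrrg and Esrrb, of the 3 estrogen-related receptors, were highest in the same 2 libraries. Esrrg, an orphan receptor of oxidative tissues, was at 1.55, 0.814, 1.16 and 2.92 CPM in control and at 14.8, 3.31, 11.9 and 0.701 CPM in BPA 2.5 (2.24, SE 0.66, adjusted p = 0.0275). Replicate 4 was below every control library and replicates 1 and 3 were above all 30 other libraries. Without the 4 libraries apart the value was 0.30 (SE 0.70, adjusted p = 0.873), and without BPA 2.5 replicate 1 or 3, or control replicate 1, 2 or 3, alone the call was lost (adjusted p up to 0.136). It was lost as well where only these 2 groups were fitted (2.20, SE 0.81, adjusted p = 0.161). In those 2 libraries Foxj1, the master regulator of motile cilia, was at 95.8 and 73.6 CPM against 0 to 0.862 CPM in control, and the summed ciliated markers at 824 and 549 CPM against 32.2 to 41.9 CPM; none of the 8 was at 0 throughout a group. Their part in the Ppara, Esrrg and Esrrb levels was not tested. In BPA 25, where the marker sums were 73.0 to 159 CPM, Esrrg was at 5.52, 5.72, 3.62 and 5.34 CPM, above every control library, at an adjusted p of 0.129 (1.64, SE 0.66).

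Ppara, Nr1h3, Nr1i3 and Esrra overlap Cdpf1, Acp2, Tomm40l and Trmt112, so their counts carry the same uncertainty as those of Thra. Esrra, the broadly expressed member that drives mitochondrial genes with the PGC-1 coactivators, was at 8.11 to 12.3 CPM in control and passed no comparison. Of 10 listed targets of these receptors, all tested, 5 were lower and 1 higher in BPA 2.5. Of all genes, 11.4% passed there, 7.06% in the higher direction. Cytochrome c, Cycs, was lower by -1.26 (SE 0.27, adjusted p = 0.00429), Idh3a of the citric acid cycle by -0.54 (SE 0.15, adjusted p = 0.0215), and Ndufs1 of respiratory complex I by -0.54 (SE 0.16, adjusted p = 0.0257). The list's median was -0.35 in BPA 2.5 against 0.046 over all genes. Cycs was at 176, 254, 248 and 177 CPM in control and at 93.7, 127, 92.0 and 43.0 CPM in BPA 2.5. These values lay below every control library both in the 2 libraries with high Esrrg, replicates 1 and 3, and in replicates 2 and 4. The coactivator gene Ppargc1a was higher there by 1.68 (SE 0.52, adjusted p = 0.0360). With the 4 libraries apart left out the Cycs call in BPA 2.5 held (-1.32, SE 0.35, adjusted p = 0.0341), and those of Idh3a (adjusted p = 0.104), Ndufs1 (0.110) and Ppargc1a (1.08, SE 0.62, adjusted p = 0.365) were lost. Lower Cycs was not particular to BPA 2.5: it was also called in BPA 25000 (-1.01, SE 0.27, adjusted p = 0.0405). The BPA 25000 call was lost without those 4 libraries (-0.86, SE 0.30, adjusted p = 0.0861). Another listed target was called lower in BPA 25 and BPA 250, with and without those 4 libraries.

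Both LXR genes and Vdr stood higher at the top BPA doses without passing. Nr1h3, LXR alpha, the oxysterol sensor of macrophages, was at 12.9, 7.62, 13.1 and 8.78 CPM in control and at 16.1, 23.2, 14.8 and 19.6 CPM in BPA 25000, above every control library (0.80, SE 0.27, adjusted p = 0.0982). It differed across groups (adjusted p = 0.0254), with its lowest means in BPA 25 and BPA 250, at 9.32 and 9.76 CPM. Nr1h2 was at 50.2 to 56.0 CPM in control and 65.0 to 77.0 CPM in BPA 25000 (0.40, SE 0.13, adjusted p = 0.0977). Vdr, the vitamin D receptor, was at 2.33 to 4.11 CPM in control, 4.60 to 8.93 CPM in BPA 2500 (1.06, SE 0.41, adjusted p = 0.368) and 5.18 to 8.67 CPM in BPA 25000 (1.03, SE 0.41, adjusted p = 0.158), and its trend over BPA dose was 0.29 per 10-fold dose (SE 0.091, adjusted p = 0.0614). Nr1h3 passed in BPA 25000 without the 4 libraries apart (0.90, SE 0.27, adjusted p = 0.0468).

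Of 10 LXR targets, all tested, 3 were higher in BPA 25000: the cholesterol exporter genes Abca1 (1.31, SE 0.31, adjusted p = 0.0295) and Abcg1 (0.97, SE 0.26, adjusted p = 0.0452), and Apoe (1.33, SE 0.32, adjusted p = 0.0314). Abca1 was at 109, 69.9, 87.6 and 90.8 CPM in control and at 241, 280, 106 and 258 CPM in BPA 25000. The low library, replicate 3, had macrophage markers summing to 356 CPM, where the other 3 of its group had 1484 to 1875 CPM and control 686 to 1298 CPM; their part in these values was not tested. Mylip, which degrades the LDL receptor, was higher in BPA 2.5, BPA 25 and BPA 250, by 1.18, 1.29 and 1.20, and Smpdl3a in BPA 250 by 1.14. The list's median was 0.33 in BPA 25000 and 0.66 in EE2 0.05, where 0 passed.

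Of 8 vitamin D targets, all tested, S100g, the calbindin of uterus, was lower in BPA 2.5 by -2.96 (SE 0.79, adjusted p = 0.0163), and Spp1, osteopontin, was higher in BPA 250 by 5.26 (SE 1.16, adjusted p = 0.0104) and in BPA 25000 by 4.35 (SE 1.11, adjusted p = 0.0376). The S100g call was lost with the 4 libraries apart left out (-2.61, SE 1.0, adjusted p = 0.145). Both genes are also known to respond to steroid hormones in uterus. Vdr itself was at 1.85 to 4.53 CPM in BPA 2.5, and in BPA 250 at 11.2 CPM in replicate 1 and 2.27 to 3.81 CPM in the other 3.

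Nr1h4, the bile acid receptor FXR, was at 11.4 to 16 CPM in control and 6.76, 8.85, 17 and 8.38 CPM in BPA 25000 (-0.49, SE 0.25, adjusted p = 0.286). Without the 4 libraries apart, which takes out the library at 17 CPM, it passed there (-0.83, SE 0.21, adjusted p = 0.0225) and in the trend over dose (-0.24, SE 0.052, adjusted p = 0.0257). Nr0b2, SHP, the repressor that FXR induces in liver, was at 0.431, 0.370, 6.16 and 0.696 CPM in control and at 13.3, 1.5, 6.86 and 2.66 CPM in BPA 250, the widest spread within groups of those 30 members, and passed no comparison. Of 6 listed genes of the FXR and SHP axis, 2 were tested and 0 passed.

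Rorb, a clock-related orphan receptor, was at 12.1, 5.18, 9.42 and 10.9 CPM in control and at 23, 28.8, 20 and 17.5 CPM in EE2 0.05, above every control library (1.25, SE 0.55, adjusted p = 0.378). In BPA 25000 it was at 24.7, 29.9, 3.24 and 25.0 CPM (1.14, SE 0.55, adjusted p = 0.249), and without the 4 libraries apart, which takes out the library at 3.24 CPM, at 1.51 (SE 0.40, adjusted p = 0.0308). Hnf4g, a gut and kidney receptor, differed across groups (adjusted p = 0.0314), with means from 1.15 ± 0.497 CPM (SD, n = 4) in BPA 25000 to 3.95 ± 1.63 in BPA 250. The control mean lay inside that range, with libraries at 2.76, 0.370, 2.39 and 2.44 CPM, and Hnf4g passed no comparison with control. Without BPA 250 replicate 2 or 4 the difference across groups was lost (adjusted p up to 0.0640).

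Of the orphan receptors related to COUP-TF, Nr2f1 and Nr2f6 moved in opposite directions in BPA 250. Nr2f1, COUP-TFI, was at 35.5, 27.3, 28.6 and 36.8 CPM in control and at 98.6, 67.0, 78.7 and 91.4 CPM in BPA 250, without overlap (1.39, SE 0.34, adjusted p = 0.0155). BPA 25 libraries were at 97.8, 74.4, 76.2 and 52.2 CPM, also above every control library, but the adjusted p was 0.0502 (1.23, SE 0.34), and 0.0172 (1.24, SE 0.29) without the 4 libraries apart. Control had the lowest mean of the 8 groups, and the mean of the BPA groups was higher by 0.91 (SE 0.28, adjusted p = 0.0773; 0.96, SE 0.25, adjusted p = 0.0331 without those 4). The BPA 250 call held in all 8 alternative analyses (adjusted p up to 0.0219) and was lost only without BPA 250 replicate 1, at an adjusted p of 0.0528; without the 4 libraries apart it was 1.31 (SE 0.31, adjusted p = 0.0219).

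Nr2f6, which represses hormone genes, was at 53.5, 48.3, 57.8 and 44.4 CPM in control and at 25.2, 41.0, 37.4 and 28.3 CPM in BPA 250, all below control (-0.63, SE 0.19, adjusted p = 0.0409). The call was kept in 1 of the 8 fits without a library, that without BPA 250 replicate 2 (adjusted p 0.0206 to 0.155 over the 8), and was lost without the 4 libraries apart (-0.51, SE 0.18, adjusted p = 0.0830) and where only these 2 groups were fitted (-0.64, SE 0.18, adjusted p = 0.0512). Nr2f2 was at 60.4 to 76.0 CPM in control and 58.3 to 105 CPM in BPA 250 and passed no comparison. Of 10 genes of the COUP-TFII axis of uterine stroma, 9 were tested, and Gli1, a hedgehog target, was lower in BPA 25 (-1.86, SE 0.44, adjusted p = 0.0393) and BPA 250 (-1.64, SE 0.43, adjusted p = 0.0229); the list's median was -0.27 and -0.64.

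Nr2c2, TR4, differed across groups (adjusted p = 0.00589) and was highest in BPA 25 and BPA 250. Control libraries were at 70.0, 58.5, 52.2 and 57.5 CPM, BPA 25 libraries at 109, 93.4, 73.1 and 85.8 CPM, and BPA 250 libraries at 114, 76.7, 75.1 and 96.9 CPM. All 8 were above every control library, and neither group passed against control, at 0.60 (SE 0.22, adjusted p = 0.0992) and 0.61 (SE 0.22, adjusted p = 0.0705). BPA 25 passed without the 4 libraries apart (0.61, SE 0.19, adjusted p = 0.0412), and DESeq2 called both Nr2c2 and Rarg in BPA 250. The means of the other 6 groups lay between 51.9 and 62.7 CPM. Its paralogue Nr2c1, TR2, was at 31.2 to 42.9 CPM in control and 23 to 32 CPM in BPA 2500 (-0.36, SE 0.18, adjusted p = 0.485) and passed no comparison.

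The NR4A receptors, orphan receptors induced within minutes by many signals, passed no comparison. Nr4a1 was at 35.4 to 54.6 CPM in control and 25.5 to 38.8 CPM in EE2 0.05 (-0.67, SE 0.35, adjusted p = 0.481), and reached 103 CPM in BPA 25000 replicate 3, where the other 3 were at 23.6 to 34.4 CPM. Nr4a2 was at 3.79 to 7.89 CPM and Nr4a3 at 1.73 to 8.02 CPM outside BPA 250 replicate 1, which had 0 counts of both. Of 12 other immediate early genes, all tested, Dusp1, a MAP kinase phosphatase, was higher by 0.98 in both BPA 25 (SE 0.24, adjusted p = 0.0393) and BPA 250 (SE 0.24, adjusted p = 0.0169), and Fosb by 1.65 in BPA 25000 (SE 0.46, adjusted p = 0.0500). Of 11 listed NR5A targets of steroidogenesis, 6 were tested and 0 passed against control.

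Coregulators and nuclear receptors outside the 38 were listed beside the members. Of 15 coregulators, 12 were tested, with 2 higher in BPA 2.5 and 1 lower in each of BPA 250 and BPA 25000: Ppargc1a and Ncoa1 were higher in BPA 2.5 (Ncoa1 by 0.64, SE 0.20, adjusted p = 0.0369), and Nrip1, a corepressor, was lower in BPA 25000 (-1.0, SE 0.18, adjusted p = 0.00956). Nrip1 was at 366, 314, 320 and 339 CPM in control and at 184, 138, 162 and 186 CPM in BPA 25000, without overlap. The share of coregulators called was 16.7% in BPA 2.5 and 8.33% in BPA 250, against 11.4% and 8.79% of all genes. Of 10 nuclear receptors outside the 38, 8 were tested, with 1 higher in EE2 0.5, and 1 higher and 1 lower in each of BPA 2.5 (Nr3c2, the mineralocorticoid receptor, by 1.13, and Pgr by -1.08) and BPA 250 (Nr3c1, the glucocorticoid receptor, by 0.76, and Nr1d1). In these 2 groups that was 25% of the 8. With the 4 libraries apart left out, the BPA 2.5 calls of Ncoa1 (0.39, SE 0.22, adjusted p = 0.363), Nr3c2 (0.81, SE 0.40, adjusted p = 0.282) and Pgr (-0.80, SE 0.44, adjusted p = 0.341) were lost.

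The comparisons of agent means and of the 2 EE2 doses called 0 members. The mean of the 2 EE2 groups against control passed for 0.0676% of all genes (unadjusted, 6 members and 15% of all genes), with Thra at 0.48 (SE 0.17, adjusted p = 0.165) the member with the smallest p. The mean of the 5 BPA groups against control passed for 1.34% (unadjusted, 7 members and 18.7%), with Thrb, Nr2f1 and Ppard the 3 smallest. EE2 0.5 against EE2 0.05 passed for 0.015% (unadjusted, 4 members and 9.01%). The mean of the BPA groups against the mean of the EE2 groups passed for 0.841% (unadjusted, 6 members and 14.3%). In that test Thra was lower under BPA by -0.31 (SE 0.11, adjusted p = 0.178), Esrrg higher by 1.11 (SE 0.40, adjusted p = 0.181) and Nr0b2 higher by 1.32 (SE 0.53, adjusted p = 0.234), none of which passed; the Nr1i2 value is not given because EE2 0.05 was at 0. Among the listed targets, that test called Cyp26a1 (3.55, SE 0.89, adjusted p = 0.0496), Lrat (1.99, SE 0.48, adjusted p = 0.0427) and Abcb1b (2.28, SE 0.56, adjusted p = 0.0442) higher under BPA. DESeq2 called 2 members, Nr2f1 and Thrb, for the BPA mean and 1, Nr1i2, between the agents. How many of all genes DESeq2 called in these comparisons is not given here.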

How the data were processed

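RNA-seq read counts per gene from 32 uterus libraries, 4 in each of 8 groups, were taken as deposited. The authors deposited whole-number counts per gene; bcl2fastq, TopHat, edgeR and build rn5 are named per the submitters' processing notes, and the sources used here do not give the counter, annotation, strand setting or versions. Of 17327 gene identifiers, 17167 matched a symbol in the RefSeq table of GRCr8, and the 160 others held 1.82% of counts. Counts were fitted with edgeR 4.0.16 in R 4.3.3 (quasi-likelihood test, 1 mean per group over all 32 libraries, TMM normalization, filterByExpr with a minimum count of 10 and total of 15, leaving 13312 genes), with Benjamini-Hochberg adjustment over these genes and a threshold of 0.05, in 13 comparisons. DESeq2 1.42.0, limma 3.58.1 (voom), other filters, scalings and sample sets were alternatives. The fit was tested on simulated data. Every member is named; of those not passing, the 6 with the smallest p under 0.05 unadjusted per comparison; of each other list, the called genes are counted and up to 3 per comparison with the smallest p are named, and 3 of these list genes are not reported here. Members, lists and the 4 libraries left out together were chosen with earlier results of these data known. Totals of 11777809 to 24661856 counts set the precision, and intervals and floors cover counting error only.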

Additional observations from a re-analysis of the deposited data

Results flagged for a closer look

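In each case below 1 library lay far from the other 3 of its group, by Dixon's gap test at the 95% level; 17 of 247 groups of 4 were marked, 6.88%, where chance marks about 5%. All values are CPM. Among the thyroid hormone receptors, Thrb was high in EE2 0.05 replicate 2 (19.6, others 12.3 to 12.6) and low in BPA 2500 replicate 3 (6.38, others 16.7 to 17.6). Pparg was high in control replicate 2 (3.18, others 1.45 to 1.74) and low in BPA 2.5 replicate 1 (1.58, others 3.62 to 4.00). In control, Hnf4g was low in replicate 2 (0.370, others 2.39 to 2.76), Nr4a2 was low in the same replicate (5.40, others 7.03 to 7.33), Rxrb was low in replicate 1 (28.6, others 31.5 to 32) and Nr0b2 was high in replicate 3 (6.16, others 0.370 to 0.696).

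Nr2c1 was high in EE2 0.5 replicate 1 (38.5, others 27.5 to 28.1) and in BPA 25 replicate 1 (50.9, others 34.3 to 36.6), and Nr2c2 was high in EE2 0.05 replicate 3 (68.8, others 60.2 to 61.4). In BPA 25000 replicate 3, which stood apart over all genes, Nr2f1 was low (19.6, others 67.9 to 70.1), Esrra was high (25.0, others 10.4 to 11.2) and Nr4a1 was high (103, others 23.6 to 34.4). Nr4a2 was low in BPA 2.5 replicate 1 (4.25, others 5.53 to 5.77) and high in BPA 25 replicate 2 (7.35, others 4.75 to 5.05). Nr4a3 was at 0 in BPA 250 replicate 1 (others 2.41 to 2.72), the library in which 148 genes present in each of the other 31 had no count.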

How the results depend on the processing

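No paired analysis was possible because the labels give no replicate numbers shared between groups. Limma voom called 2 members in EE2 0.05, 2 in EE2 0.5, 9 in BPA 25, 8 in BPA 250, 12 in BPA 25000, 3 for the EE2 mean, 5 for the BPA mean, 8 for the dose trend, 2 between the agents and 22 across groups. Calls over all genes rose too: voom called 1375 in EE2 0.05, 1221 in EE2 0.5, 2650 in BPA 25 and 2991 in BPA 250. The main analysis called 6, 74, 256 and 1170 there. Where a member count in this paragraph has no count over all genes beside it, it cannot be set against a background. DESeq2 called 1 member in EE2 0.5, 6 in BPA 25, 1 in BPA 25000, 2 for the BPA mean, 3 for the trend and 1 between the agents. Over all genes it called 442 in EE2 0.5 and 1080 in BPA 25. Without the 4 libraries apart, 2 members were called in BPA 2.5, 7 in BPA 25, 2 in BPA 250, 4 in BPA 25000 and 1 for the BPA mean. Over all genes that fit called 526 in BPA 2.5, 1374 in BPA 25 and 884 in BPA 250. Fits of only the groups compared called 1 member in BPA 2.5 (Nr1i2) and 5 in BPA 25, where 57 and 1195 of all genes passed. A filter of 1 CPM in 16 libraries called 1 member in EE2 0.5, 1 in BPA 25 and 0 for the trend. It removed Nr1i2, which was therefore not tested under it. Fitting with no filter called 3 in BPA 250, and DESeq2's size factors in edgeR called 1 in BPA 25. Over all genes that filter called 99 in EE2 0.5 and 379 in BPA 25. No filter called 970 in BPA 250, and the size factors 273 in BPA 25. Leaving out each library in turn gave 0 to 5 members in BPA 2.5, 0 to 3 in BPA 25, 0 to 7 in BPA 250, 0 to 2 in BPA 25000, 0 to 3 for the BPA mean, 0 to 5 for the trend and 8 to 16 across groups, and 0 in the other comparisons; over all genes it gave 594 to 1984 in BPA 2.5 (1524 in the main analysis), 0 to 523 in BPA 25 (256), 179 to 1594 in BPA 250 (1170) and 2 to 502 in BPA 25000 (309). Of the 24 member calls, 11 held under every alternative that tested them, leaving out 1 library aside, and 5 without each single library. Those of Nr1i2 in BPA 2.5 and across groups are among the 11, though the filter of 1 CPM in 16 libraries removed Nr1i2. Direction turned in 4 instances: Nr1i2 in EE2 0.5 (-0.066) and Rxra in BPA 2.5 (-0.029) with voom, and the trends of Ppara (0.0057) and Esrrg (0.0072) without the 4 libraries. The cause was not tested. Members below 1 CPM and libraries at 0 counts limit what depth can show, and 4 libraries a group leave calls near the threshold open to 1 library.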
